A study of Mus musculus with 8 samples.

Results

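The constitutive proteasome genes were followed in right fronto-parietal cortex of mice that lack Il6 in microglia and of floxed mice, with or without a cryolesion. They were taken as every gene on the array whose symbol begins with Psma, Psmb, Psmc or Psmd and a number, leaving out the inducible Psmb8, Psmb9 and Psmb10. This gave 37 genes read by 59 probes, of which 36 genes were tested among 29362 features. Psmb11, a beta subunit of the thymus proteasome, was well above background in fewer than 4 of the 16 channels and was not tested. The 36 tested genes comprised 15 core particle genes (8 of the alpha ring and 7 of the beta ring) and 17 regulatory particle genes (9 of the base and 8 of the lid). The other 4 were Psmd5, Psmd9 and Psmd10, chaperones that assemble the base, and Psmc3ip, a meiotic recombination protein that the letters of the rule also caught. The symbols were matched through RefSeq accessions, and 6 further RefSeq genes with such symbols, pseudogenes among them, had no named probe. Controls of either genotype (floxed, or microglia-derived Il6 deficient) were set against cryolesioned mice of the same genotypes, and each of the 4 groups held 4 mice, which the design text calls biological replicates. Floxed mice carry target sites of Cre recombinase in a gene, and in a cryolesion a cold probe damages a small area of cortex. Tissue came from the lesioned side. The Cre driver, the deleted exons, strain, age, sex and the time after the lesion are not given in the sources used here.

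The proteasome degrades ubiquitin-tagged proteins. Its core particle is a barrel of stacked rings, in which alpha subunits form the gate and the beta subunits Psmb5, Psmb6 and Psmb7 cut the protein chain. The regulatory particle caps the barrel, with a base of ATPases that unfold the substrate and a lid that removes ubiquitin. In inflamed tissue, interferon induces Psmb8, Psmb9 and Psmb10, which replace Psmb5, Psmb6 and Psmb7 in the immunoproteasome. Neurons rely on the constitutive form, and when proteasome activity falls the transcription factor Nfe2l1 is known to raise the constitutive subunits together.

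Because the subunit genes are known to share transcriptional control, their promoters were searched for the core of the antioxidant response element, TGACNNNGC, which Nfe2l1 and Nfe2l2 bind, and for CCGGAAG, a motif of ETS factors, on both strands. RefSeq promoters of assembly GRCm38.p6, each of 300 bases around a start site, gave 28 start sites for 26 of the 33 core and regulatory genes (Psmb11 included). For the subunits the search skipped a chromosome that the count over all promoters kept, and Psma8 was among the genes left without a start site. TGACNNNGC was found in 4 of 28 (14.3%), against 12.4% of all 32851 promoters. CCGGAAG was found in 11 of 28 (39.3%), of 10 genes, against 8.86% of all promoters, and Psmc6 and Psmd12 held both motifs. The 250 bases before the start sites of 2 catalytic subunits are shown because TGACNNNGC (capitals) began 47 bases before the start in Psmb5 and 9 bases before it in Psmb6. That of Psmb5 lies on the minus strand at chr14:54617996-54618245 and that of Psmb6 on the plus strand at chr11:70525107-70525356.
Psmb5: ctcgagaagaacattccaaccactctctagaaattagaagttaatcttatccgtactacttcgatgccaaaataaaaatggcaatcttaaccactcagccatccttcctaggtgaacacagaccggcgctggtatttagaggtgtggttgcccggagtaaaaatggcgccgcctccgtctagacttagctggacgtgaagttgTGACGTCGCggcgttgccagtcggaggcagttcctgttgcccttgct
Psmb6: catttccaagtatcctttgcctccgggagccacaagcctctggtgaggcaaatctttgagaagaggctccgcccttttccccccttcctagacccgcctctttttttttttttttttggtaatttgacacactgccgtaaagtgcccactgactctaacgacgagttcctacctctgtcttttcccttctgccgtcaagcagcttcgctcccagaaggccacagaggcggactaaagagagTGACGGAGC

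The CCGGAAG matches are shown by 1 example from each class of subunit that held one, with the motif or its reverse complement in capitals. They come from the alpha-ring subunit Psma6 (chr12:55398812-55398840), the base ATPase Psmc1 (chr12:100110163-100110191) and the lid subunit Psmd12 (chr11:107479500-107479528), all on the plus strand. A match describes the letters in these windows and is no measurement of binding.
Psma6: ccgccggtgctCCGGAAGcagtagccata
Psmc1: tggtggatgcaCTTCCGGcggtggcgatt
Psmd12: tgagcgggcgaCTTCCGGtgcgagtgacg

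RNA of the 16 animals was hybridised in pairs on 8 Agilent arrays of 1 slide, whose channels each had from 59.2% to 65.9% of their probes well above background. The Il6 probe rose clearly over background only among floxed cryolesioned mice, in 3 of 4, where its mean was 6.50 ± 0.27 (SD, log2 intensity). It stood at 6.13 ± 0.080 in Il6-deficient cryolesioned mice. Xist, which marks females, passed that criterion in 3 floxed controls and 1 Il6-deficient control and in 0 cryolesioned mice, so sex was unequal between the groups. Of 8 reactive astrocyte markers, 7 rose after cryolesion in both genotypes, against 1.86% of all features in floxed and 1.67% in Il6-deficient mice. All 12 neuronal markers were detected. In the mean of both genotypes 2 of them fell, against 5.87% of all features, with a median log2 difference of -0.35 over the list. Within floxed mice 2 fell and within Il6-deficient mice 0 did, against 1.19% and 1.07% of all features. In whole cortex, fewer cells of a type and less RNA per cell cannot be told apart.

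Levels are given as log2 channel intensities of 1 probe per gene, which compare animals but not genes. The largest departure among the subunits was that of 1 floxed control animal, number 2. It held the lowest level of all 16 animals for 25 of the 32 subunits (78.1%), while it was lowest for 11.1% of all features and for 19.8% of the 3110 features at or above the lower quartile of subunit levels. Its median difference from the other 3 floxed controls was -0.44 over the subunits, -0.45 over the core particle and -0.43 over the regulatory particle, against -0.21 over those 3110 features and -0.014 over all features. The alpha-ring subunit Psma4 differed most, at -0.71, followed by the lid scaffold Psmd3 at -0.68 and Psma1 at -0.64. The 7 subunits for which it was not the lowest animal were Psma8, Psmb2, Psmb7, Psmc5, Psmd7, Psmd8 and Psmd11, and its levels of Psmb7, Psmc5 and Psmd11 were above the mean of the other 3 by 0.32, 0.21 and 0.11. No other animal was the lowest for more than 4 subunits.

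The other measures of this animal are given beside its subunit levels. Its channel had 60.4% of probes well above background, within the range of the others. The median deviation of its 12 neuronal markers was -0.38 on the log2 scale, whereas the other 7 controls lay between 0.0059 and 0.40. Its 8 reactive astrocyte markers, at -1.64, lay among those of the other controls (-1.84 to -1.25). Its median deviations of 8 astrocyte, 5 endothelial and 3 lymphocyte markers, 0.24, 0.32 and 0.27, were the highest of all animals. The next highest were 0.22, 0.23 and 0.11. Its microglia (0.21), oligodendrocyte (0.26), monocyte and macrophage (-0.42), neutrophil (-1.41) and erythroid (0.076) markers lay within the range of the other controls. This animal was the 1 floxed control in which Xist was not well above background. The part of cell composition, RNA quality or sex in its low subunit levels was not tested. Since its array enters several comparisons, values without that array are given where it moves them.

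**Figure D1:**
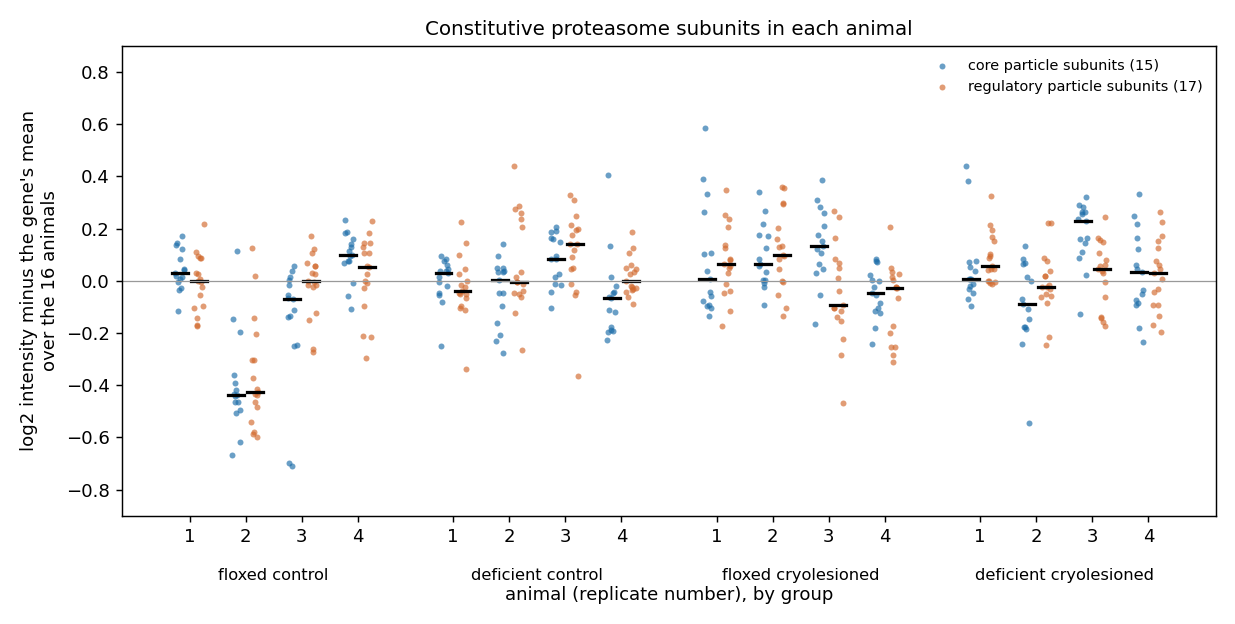
Log2 intensity of each of the 32 subunits in each animal, minus that gene's mean over the 16 animals, by group and replicate number; points are genes, blue for the 15 core and orange for the 17 regulatory particle subunits, and black lines are medians. Floxed control animal 2 has medians of -0.44 and -0.42, and the medians of the other 15 animals lie between -0.093 and 0.23.

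The median core deviation was -0.094 ± 0.24 (SD, n = 4) in floxed controls, 0.014 ± 0.064 in Il6-deficient controls, 0.039 ± 0.078 in floxed cryolesioned and 0.045 ± 0.14 in Il6-deficient cryolesioned animals. The regulatory particle stood at -0.095 ± 0.22, 0.025 ± 0.078, 0.0090 ± 0.086 and 0.028 ± 0.035 in the same order. For both particles the 4 groups overlapped. The core median minus the regulatory median of an animal was 0.00096 ± 0.052 in floxed controls, against -0.012 ± 0.062 in Il6-deficient controls. It was 0.030 ± 0.13 in floxed cryolesioned and 0.017 ± 0.11 in Il6-deficient cryolesioned animals, so the balance of core to regulatory transcripts differed between groups by less than its spread within them.

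Psmb5, which carries the chymotrypsin-like activity, read 12.47, 11.88, 12.16 and 12.46 in floxed controls 1 to 4 and 12.36, 12.35, 12.46 and 12.28 in Il6-deficient controls. The cryolesioned levels were 12.24, 12.47, 12.51 and 12.12 in floxed and 12.23, 12.23, 12.46 and 12.12 in Il6-deficient animals. The lowest value was that of floxed control 2, and the 4 groups overlapped. The fitted cryolesion effect as the mean of both genotypes was -0.018 ± 0.063 (SE, log2), with a 95% confidence interval of -0.17 to 0.13 and a limma adjusted p of 0.894.

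Psmb6, the caspase-like subunit, read 14.03, 13.84, 14.02 and 13.93 in floxed controls, against 14.13, 13.99, 14.05 and 14.17 in Il6-deficient controls. In cryolesioned animals the values were 14.30, 14.12, 13.87 and 14.11 in floxed and 13.94, 13.86, 14.06 and 14.16 in Il6-deficient mice. The lowest was again floxed control 2, and the groups overlapped. Its cryolesion effect was 0.12 ± 0.068 (SE), with an interval of -0.043 to 0.28 and an adjusted p of 0.31.

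Psmb7, the trypsin-like subunit, varied more among animals of a group. It read 11.12, 11.11, 10.30 and 10.94 in floxed controls, against 11.08, 10.79, 11.09 and 11.40 in Il6-deficient controls. The cryolesioned values were 11.58, 11, 11.12 and 10.95 in floxed and 11.38, 10.45, 10.87 and 10.76 in Il6-deficient animals. Floxed control 3 and Il6-deficient cryolesioned animal 2 were lowest, and the groups overlapped. Its effect of 0.12 ± 0.19 (SE) had an interval of -0.33 to 0.57 (adjusted p = 0.735) and became -0.20 without the array of floxed control 3. None of the catalytic subunits passed the threshold for cryolesion. The intervals of the probes used reach 1.10-fold higher for Psmb5, 1.21-fold for Psmb6 and 1.49-fold for Psmb7. A dimmer probe of Psmb6 gave a larger effect, 0.24 ± 0.071 (SE; adjusted p = 0.0726 in a limma fit of single probes), so the Psmb6 limit holds for 1 probe only.

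Cryolesion as the mean of both genotypes gave the narrowest intervals, because its estimate is the mean of the 4 ratios in which an array held a cryolesioned and a control animal. These arrays do not hold floxed control 2. Of all features, 11.9% passed an adjusted p of 0.05 (6.02% higher and 5.87% lower, so 50.6% of calls were higher, and 63.0% with the scanner software's processed signals), whereas 1 of the 36 proteasome genes did. The effects of the 32 subunits ran from -0.23 (Psmc3) to 0.42 (Psmb2) with a median of 0.054, against -0.0090 over all features. These values rest on the brightest probe of each gene. For most of the 17 genes with several probes it gave the lowest value, and for Psma8, Psmc4 and Psmc3ip the highest. A dimmer probe gave 0.30 against 0.16 for Psma3, 0.19 against 0.015 for Psmb4 and 0.21 against 0.016 for Psmd2. For Psma8 it gave 0.11 against 0.33. On the probes used, all 32 subunits had 95% intervals within 1 log2 unit of 0, and 27 had intervals within 0.5. The median was 0.072 over the core, -0.035 over the base and 0.054 over the lid, and 13 of 15, 4 of 9 and 6 of 8 of these effects were above 0, against 47.6% of all features. At an unadjusted p under 0.05, 5 of the 32 subunits (15.6%) passed, against 28.5% of all features. With sex, as read from Xist, as a covariate the base and lid medians were 0.14 and 0.20; that term is estimated from the array of floxed control 2 alone. The base median also turned to 0.045 with median centring, 0.025 with processed signals and 0.039 with probes averaged. The separate-channel fit called 6 of the 36 (Psma3, Psma8, Psmb2, Psmc4, Psmc6 and Psmd5), against 28.7% of all features.

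The gene that passed was Psma8, the alpha subunit of the testis proteasome. It read 6.87, 6.58, 6.48 and 6.72 in floxed controls, against 6.48, 6.50, 6.72 and 6.53 in Il6-deficient controls. After cryolesion the values were 7.06, 7.07, 7.04 and 6.61 in floxed and 6.72, 6.64, 7.01 and 6.63 in Il6-deficient animals. Of the cryolesioned animals, 4 were above every control and 4 lay within the range of the controls, and the on-array difference was above 0 on 3 of 4 arrays. The rise was 0.33 ± 0.073 (SE), or 1.26-fold, with an adjusted p of 0.0322. Over 19 alternative settings it ran from 0.22 to 0.69 and passed in 9, with adjusted p from 0.0117 to 0.137. It was lost with median centring in place of loess (0.32, adjusted p = 0.0691), with the replicate number as a block (0.37, adjusted p = 0.111), with all probes of the gene averaged (0.22, adjusted p = 0.0675), with sex as a covariate (0.30, adjusted p = 0.0964) and without any one of 6 arrays (those of floxed controls 1, 3 and 4 and of floxed cryolesioned mice 1, 2 and 4), with adjusted p from 0.0657 to 0.137 and values from 0.25 to 0.40. The scanner software's processed signals gave 0.69. A second probe of Psma8, with a mean log2 intensity of 6.14 against 6.73 for the probe used, gave 0.11 (adjusted p = 0.328 in a limma fit of single probes).

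Psmb2, a structural beta subunit, had the largest effect, 0.42 ± 0.17 (SE; adjusted p = 0.161). It read 9.19, 8.72, 8.51 and 9.34 in floxed controls, against 9.25, 8.95, 9.12 and 9.10 in Il6-deficient controls, and 9.61, 9.44, 9.61 and 9.31 in floxed cryolesioned animals. Il6-deficient cryolesioned animals read 9.66, 9.08, 9.54 and 9.14. Within each genotype the control and cryolesioned animals overlapped, while floxed cryolesioned animals were all above the Il6-deficient controls. On the arrays the difference of Psmb2 was 0.49, 0.34, 1.03 and -0.20, so the largest came from the array of floxed control 3. Psmc3ip had an effect of 0.40 ± 0.15 (SE; adjusted p = 0.135) and was higher in the cryolesioned animal on all 4 arrays.

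The largest negative effects belonged to the base ATPases Psmc3 and Psmc1 and to Psmd3. Psmc3 read 15.03, 14.56, 15.13 and 15.17 in floxed controls, against 15.17, 15.31, 15.14 and 15.21 in Il6-deficient controls. It read 14.85, 14.89, 14.87 and 14.74 in floxed cryolesioned and 15.35, 14.99, 15.07 and 14.89 in Il6-deficient cryolesioned animals. The floxed cryolesioned animals were below the controls other than floxed control 2, and above that animal, so the ranges overlapped. The share of all features that separate in this way was not counted. The dimmer probes of Psmc3 gave 0.083 and -0.091 for cryolesion in floxed mice, and -0.023 and -0.145 in the mean of both genotypes. With the probe used, the effect of Psmc3 was -0.23 ± 0.14 (SE; adjusted p = 0.314). That of Psmc1 was -0.14 ± 0.13 (adjusted p = 0.526) and that of Psmd3 -0.10 ± 0.21 (adjusted p = 0.798). Psmc3 and Psmc1 were lower in the cryolesioned animal on all 4 arrays, as were 17.9% of all features, and Psmd3 was lower on 2. On all 4 arrays the cryolesioned animal was higher for 6 of 36 genes (Psma1, Psmd6, Psmd12, Psmd9, Psmd10 and Psmc3ip), against 14.7% of all features.

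**Figure D2:**
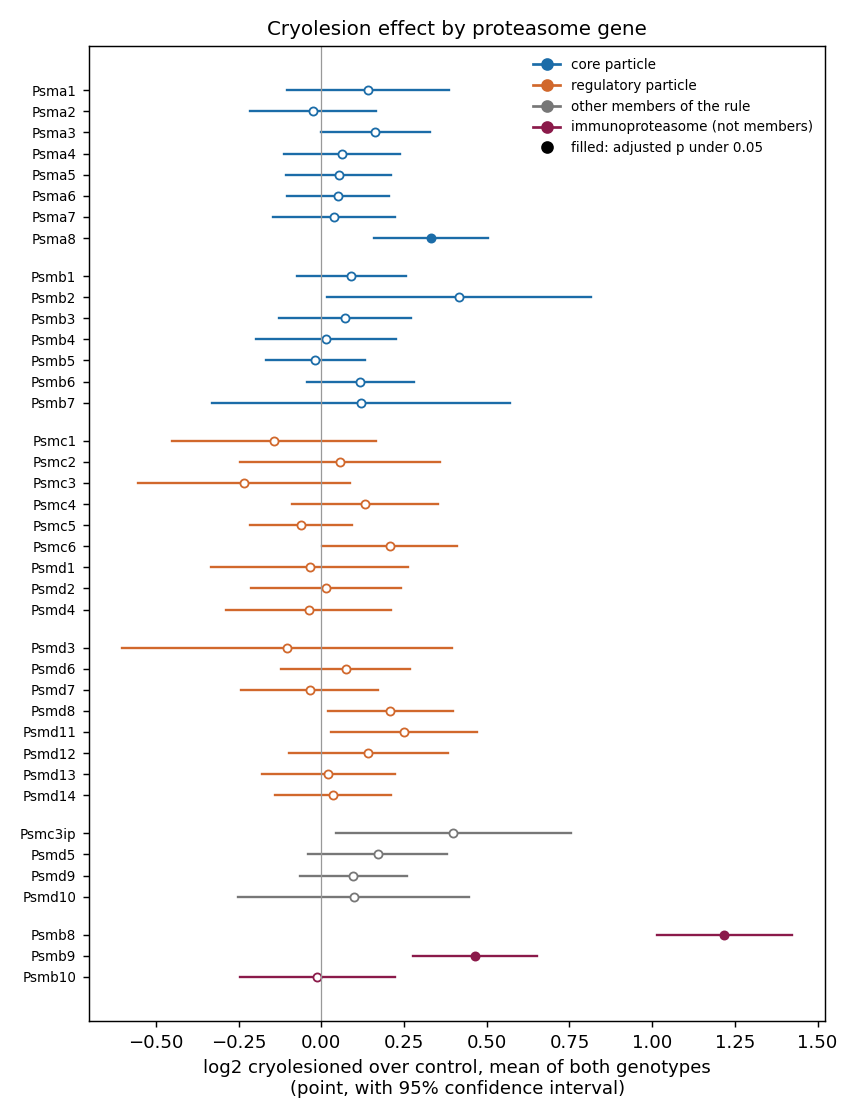
Fitted log2 cryolesion effect (mean of both genotypes) with its 95% confidence interval for each tested gene, blue for core, orange for regulatory, grey for the other 4, and dark red for Psmb8, Psmb9 and Psmb10, which are not constitutive subunits; filled points passed an adjusted p of 0.05. Psma8 at 0.33 is the one filled point among the constitutive genes, and Psmb8 at 1.22 lies outside the range of all of them.

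Within floxed animals, 3.05% of all features passed for cryolesion and 0 of the 36 proteasome genes did in limma. At an unadjusted p under 0.05, 7 of the 32 subunits (21.9%) passed, against 19.6% of all features. The separate-channel fit of limma, which called 16.7% of all features, called 4 of the 36 (Psmb2, Psmc4, Psmc6 and Psmd5). All 15 core effects were above 0, with a median of 0.20, while 4 of 9 base effects (median -0.027) and 6 of 8 lid effects (median 0.15) were. Without the array of floxed control 2 the medians were 0.16, -0.12 and 0.080. The base median had no settled sign, at 0.20 with median centring, 0.093 with processed signals and 0.015 in the authors' deposited table. The largest effects were those of Psmc3ip (0.59 ± 0.21, SE), Psmb2 (0.53 ± 0.24) and Psmc6 (0.38 ± 0.12), with adjusted p of 0.191, 0.279 and 0.155. The lowest were those of Psmc3 (-0.19 ± 0.19), Psmd3 (-0.13 ± 0.30) and Psmc1 (-0.13 ± 0.18), with adjusted p of 0.655, 0.869 and 0.778. Psmc6, a base ATPase whose promoter held both motifs, read 12.81, 12.55, 12.71 and 13.09 in floxed controls and 13.22, 13.34, 13.05 and 13.03 after cryolesion, which overlapped.

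Within Il6-deficient animals, 2.73% of all features passed for cryolesion and 0 of the 36 proteasome genes did in limma. At an unadjusted p under 0.05, 2 of the 32 subunits (6.25%) passed, against 19% of all features, and the separate-channel fit called 0 of the 36 against 10.7% of all features. The medians were -0.070 over the core, with 6 of 15 effects above 0, -0.050 over the base and -0.032 over the lid. Without the array of floxed control 2 they were 0.057, 0.065 and 0.12, and the separate-channel fit also turned the core (0.022) and the lid (0.021). The largest effects were those of Psma8 (0.38 ± 0.10, SE; adjusted p = 0.115), Psmd11 (0.34 ± 0.13; adjusted p = 0.229) and Psmb2 (0.30 ± 0.24; adjusted p = 0.561). The lowest were those of Psmc3 (-0.27 ± 0.19), Psma2 (-0.19 ± 0.11) and Psmc1 (-0.16 ± 0.18), with adjusted p of 0.499, 0.423 and 0.707. Psmd11, a lid subunit, read 9.95, 10.04, 10.03 and 9.95 in Il6-deficient controls and 10.09, 10.06, 9.91 and 10.05 after cryolesion, so its channel levels overlapped. No array held both states of a genotype, and the fitted effect combines arrays.

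Il6 deficiency was compared with the floxed state separately in controls and after cryolesion, and 0% of all features passed in either comparison. In controls, 0 of the 36 proteasome genes passed in limma or in its separate-channel fit, while 6 of the 32 subunits (18.8%) had an unadjusted p under 0.05, against 4.42% of all features. The 6 were Psma1, Psma2, Psma4, Psma5 and Psma6 of the alpha ring and Psmd6 of the lid, and all had effects above 0. The medians were 0.17 over the core, 0.16 over the base and 0.15 over the lid, with 26 of 32 effects above 0. Without the array of floxed control 2 they were 0.11, -0.034 and -0.013. The largest effects were those of Psmc2 (0.34 ± 0.16, SE), Psma1 (0.31 ± 0.13) and Psmc3 (0.27 ± 0.17), each with an adjusted p of 0.983. Without that array they were 0.048, 0.075 and -0.029. Psma1 read 12.41, 11.82, 12.45 and 12.53 in floxed and 12.45, 12.47, 12.42 and 12.39 in Il6-deficient controls, so floxed control 2 was the one animal outside 12.39 to 12.53. Psmc2 read 12.96, 12.48, 13.05 and 13.04 in floxed and 13.11, 13.27, 13.26 and 13.03 in Il6-deficient controls. The lowest effects were those of Psma8 (-0.20 ± 0.089; adjusted p = 0.983), Psmd11 (-0.16 ± 0.11; adjusted p = 0.983) and Psmd10 (-0.085 ± 0.18; adjusted p = 0.987).

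After cryolesion, 0 of the 36 genes passed for genotype in limma or in its separate-channel fit, and 0 of the 32 subunits had an unadjusted p under 0.05, against 8.61% of all features. The core median was -0.068 with 1 of 15 effects above 0, the base median 0.11 with 6 of 9 and the lid median -0.035 with 3 of 8. Without the array of floxed control 2 they were -0.036, 0.13 and -0.010, and over all arrays left out in turn the core median ran from -0.15 to -0.0065. The base median was -0.13 with median centring and -0.016 with probes averaged. The largest effects were those of Psmd3 (0.25 ± 0.26, SE), Psmc3 (0.19 ± 0.17) and Psmc1 (0.13 ± 0.16), and the lowest those of Psmc3ip (-0.33 ± 0.18), Psmd10 (-0.21 ± 0.18) and Psmb1 (-0.18 ± 0.085). Their adjusted p ran from 0.598 to 0.806. Psmb1, a structural beta subunit, read 11.85, 11.87, 12.15 and 11.89 in floxed and 11.90, 11.65, 12.13 and 12.14 in Il6-deficient cryolesioned animals, which overlapped. All 32 intervals lay within 1 log2 unit of 0, and 27 within 0.5.

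The cryolesion response of Il6-deficient minus that of floxed animals was tested as an interaction, and 0% of all features passed. Of the 36 genes, 0 passed in limma or in its separate-channel fit, and 3 of the 32 subunits (Psmd6, Psma6 and Psmb1) had an unadjusted p under 0.05, against 3.31% of all features. The medians were -0.25 over the core, -0.080 over the base and -0.080 over the lid, and 25 of 32 values were below 0. Without the array of floxed control 2 they were -0.13, 0.17 and 0.077. The lowest were Psmd6 (-0.44 ± 0.17, SE), Psma1 (-0.42 ± 0.21) and Psmc3ip (-0.39 ± 0.30), and the highest were Psmd11 (0.18 ± 0.19), Psmc5 (0.11 ± 0.13) and Psma8 (0.097 ± 0.15), each with an adjusted p of 1. The 2 cryolesion effects and the 2 genotype effects are built from the same 16 animals, so their values are given side by side and were not correlated.

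**Figure D3:**
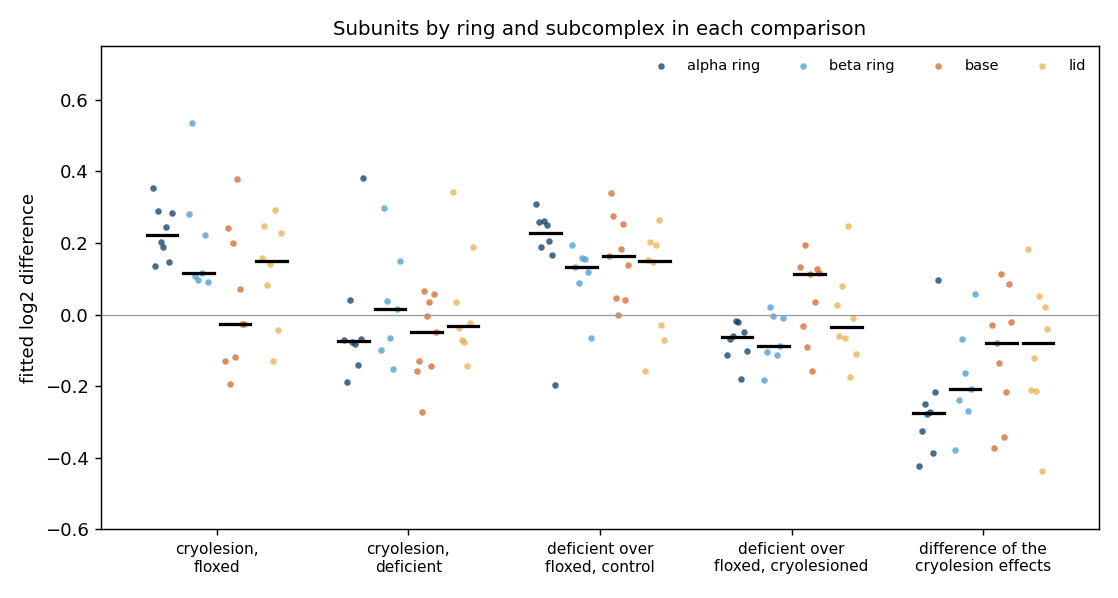
Fitted log2 differences of the 32 subunits in 5 comparisons, by class (alpha ring, beta ring, base and lid); points are genes and black lines are class medians. The alpha-ring median is 0.22 for cryolesion in floxed animals, -0.074 for cryolesion in Il6-deficient animals, 0.23 for genotype in controls, -0.064 for genotype after cryolesion and -0.28 for the difference of the cryolesion effects.

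The subunits also varied together among animals of the same group. With group means removed, the mean pairwise correlation of the 32 subunits across 16 animals was 0.388, against 0.0047 over all features and 0.086 over the 3110 features at or above the lower quartile of subunit levels. It was 0.704 within the alpha ring, 0.306 within the beta ring, 0.463 within the base, 0.282 within the lid and 0.353 between core and regulatory subunits. Without floxed control 2 these were 0.176 over all subunits and 0.529, 0.209, 0.333, 0.0779 and 0.105 in the same order, while the 3110 features stood at 0.044. The alpha ring thus kept the highest value with and without that animal. The base scaffold Psmd1 (0.587), Psmb4 (0.586) and the lid subunit Psmd12 (0.572) had the highest mean correlation with the other subunits, and the base ATPase Psmc5 (-0.19), Psmd11 (-0.046) and Psmb7 (-0.016) the lowest. Without floxed control 2 the first 3 stood at 0.347, 0.348 and 0.309 and the last 3 at -0.012, 0.071 and 0.148, and the lowest subunits were then Psmc4 (-0.13) and Psmd14 (-0.022). These genes were named after their values were seen. Animals share arrays, dyes and normalization, so these correlations are descriptions.

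The inducible counterparts were measured on the same arrays. Psmb8 read 7.84, 8.08, 8.36 and 7.95 in floxed controls, against 7.87, 7.49, 7.90 and 7.93 in Il6-deficient controls. Cryolesion brought levels of 9.54, 9.42, 8.99 and 9.27 in floxed and 8.74, 8.93, 8.95 and 9.11 in Il6-deficient animals, so every cryolesioned animal was above every control. Psmb8 rose by 1.22 ± 0.086 (SE; adjusted p = 0.000955) in the mean of both genotypes, and passed in all 19 alternatives. Within floxed mice its rise was 1.23 (adjusted p = 0.00731, and 0.0541 without the array of floxed control 1). Within Il6-deficient mice it was 1.21 (adjusted p = 0.00882, 0.0521 and 0.0518 without the arrays of Il6-deficient cryolesioned mice 2 and 4, and 0.17 with the replicate number as a block), and it passed in 16 of 19 alternatives. Psmb9 rose by 0.47 ± 0.079 (adjusted p = 0.0146), passing in 13 of 19 alternatives with adjusted p from 0.00062 to 0.0937 (0.0619 and 0.0838 without the arrays of floxed cryolesioned mice 1 and 2, and 0.0937 without that of Il6-deficient cryolesioned mouse 4), and Psmb10 had an effect of -0.012 ± 0.099 (adjusted p = 0.958). The log2 ratio of each inducible subunit to the constitutive subunit it replaces was then compared between 8 cryolesioned and 8 control animals, as a pairing chosen with earlier results known. The permutation shuffled animals freely, although they share arrays and dyes and come from both genotypes, so its p-values are descriptions. Each ratio holds the change of the inducible gene given above and is no separate evidence of it. The ratio of Psmb8 to Psmb5 was higher by 1.20 after cryolesion (exact two-sided permutation p = 0.000155, the smallest that 12870 splits allow, and 0.000465 adjusted over 3 pairs). That of Psmb9 to Psmb6 was higher by 0.45 (exact permutation p = 0.00389, adjusted 0.00584), and that of Psmb10 to Psmb7 differed by 0.029 (exact permutation p = 0.875, adjusted 0.875). Within floxed animals the 3 differences were 1.15, 0.33 and -0.13, with exact permutation p of 0.0286, 0.114 and 0.657 (0.0858, 0.171 and 0.657 adjusted over 3 pairs). The smallest p that 4 against 4 allows is 0.0286, and a pair that reaches it alone cannot adjust below 0.0858. The floxed ratios of Psmb8 to Psmb5 did not overlap, at -4.63 to -3.80 in controls and -3.52 to -2.70 after cryolesion. Within Il6-deficient animals the 3 differences were 1.24, 0.58 and 0.19, with exact permutation p of 0.0286, 0.0286 and 0.629 (0.0429, 0.0429 and 0.629 adjusted). Since more than a single pair reached the smallest p there, the adjusted values do not compare the genotypes. Reactive astrocyte and monocyte markers rose in the same cryolesioned animals (7 of 8 and 5 of 7 in the mean of both genotypes, against 6.02% of all features). The part of these cell types in the Psmb8 and Psmb9 values was not tested.

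**Figure D4:**
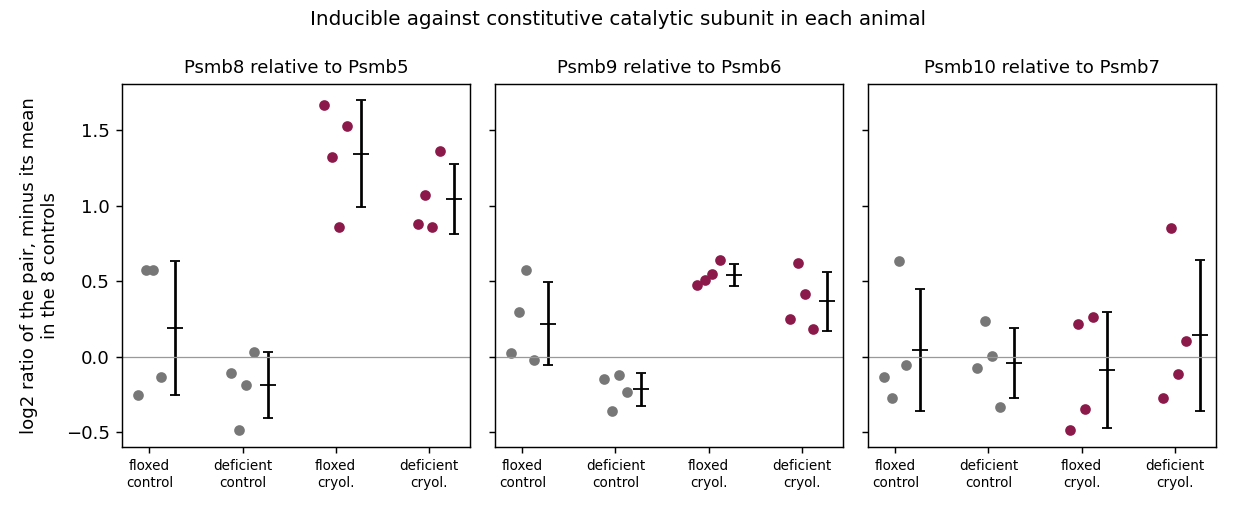
Log2 ratio of each inducible subunit to its constitutive counterpart in each animal, minus the mean of the 8 controls; points are animals, grey for control and dark red for cryolesioned, with the mean and SD of each group beside them. The cryolesioned mean exceeds the control mean by 1.20 for Psmb8 over Psmb5, 0.45 for Psmb9 over Psmb6 and 0.029 for Psmb10 over Psmb7.

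Of 44 other genes of the ubiquitin-proteasome pathway, including these 3, 42 were tested, and Psme2 and Paaf1 had no named probe. In floxed animals 2 rose after cryolesion and 0 fell, against 1.86% and 1.19% of all features (60.9% of calls higher, 86.8% with processed signals). These were Psmb8 and Nfe2l2, and Nfe2l2 (0.82 ± 0.16, SE; adjusted p = 0.0499) passed in 7 of 19 alternatives and was lost without any one of the 7 arrays other than that of floxed control 2 (adjusted p from 0.0577 to 0.213). In Il6-deficient animals 1 rose and 0 fell, against 1.67% and 1.07% (61.0% higher, 81.3% with processed signals). In the mean of both genotypes 4 rose and 2 fell, against 6.02% and 5.87%, and 0 passed for genotype or interaction. Without the array of floxed control 2, 8 genes passed in floxed mice and 10 in the mean of both genotypes. Of all features, 2140 and 5179 then passed, against 896 and 3492 with all arrays. Without the arrays of floxed cryolesioned mice 1 or 2, 1 gene passed in each of these comparisons. Calls over all features were then 173 or 405 in floxed mice and 1238 or 1004 in the mean of both genotypes. The median of the 42 was -0.018 in the mean of both genotypes. Besides Psmb8 and Psmb9, the genes that rose were Nfe2l2, the antioxidant response factor (0.68 ± 0.12, SE; adjusted p = 0.0144), and Ufd1, a cofactor of the segregase Vcp (0.38 ± 0.085; adjusted p = 0.033). Those that fell were the shuttle factors Ubqln2 (-0.38 ± 0.088; adjusted p = 0.0388) and Zfand5 (-0.40 ± 0.10; adjusted p = 0.0492). Over 19 alternatives Nfe2l2 passed in 15, Ufd1 in 10, Ubqln2 in 7 and Zfand5 in 4, with adjusted p of up to 0.0947, 0.242, 0.223 and 0.258. The rise of Nfe2l2 was lost without the array of floxed cryolesioned mouse 1 or 2 (adjusted p = 0.0731 and 0.0691), that of Ufd1 without any one of 5 arrays (those of floxed controls 1 and 3 and floxed cryolesioned mice 1, 2 and 4; 0.0621 to 0.152), and the falls of Ubqln2 and Zfand5 without any one of 6, the same arrays and that of floxed control 4 (0.0595 to 0.15 and 0.0853 to 0.18).

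Nfe2l2 read 8.89, 8.93, 8.69 and 9.12 in floxed controls, against 8.92, 8.68, 8.77 and 8.76 in Il6-deficient controls. Cryolesioned levels were 9.69, 9.70, 9.70 and 9.84 in floxed and 9.39, 9.36, 9.47 and 9.20 in Il6-deficient animals, all above every control. Nfe2l1, the factor known to raise the constitutive subunits, had an effect of -0.27 ± 0.14 (adjusted p = 0.268). The core assembly factor Pomp stood at -0.14 ± 0.099 (adjusted p = 0.395), the activator subunit Psme1 at 0.25 ± 0.072 (adjusted p = 0.0713) and the ubiquitin receptor Adrm1 at 0.21 ± 0.062 (adjusted p = 0.0693). The proteasome-bound deubiquitinase Usp14 had an effect of -0.19 ± 0.11 (adjusted p = 0.322), and the ubiquitin gene Ubb had -0.53 ± 0.21 (adjusted p = 0.153). The subunits whose promoters held TGACNNNGC had effects of -0.018 (Psmb5), 0.12 (Psmb6), 0.21 (Psmc6) and 0.14 (Psmd12), none past the threshold.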

How the data were processed

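Total RNA of 16 mice was hybridised in pairs on 8 two-colour Agilent arrays in a closed loop of 4 sides, each side with 2 arrays of opposite dye; no array held both states of a genotype. Per the submitters' processing notes, Agilent Feature Extraction 10.7.3.1 read the scans; its files hold each spot's median intensity, processed intensity and log10 ratio as the authors deposited them. The deposited value table gives log2 ratios whose direction was found by comparison with the scanner files and whose exact scaling is unknown. Median intensities were background-corrected with normexp (offset 50), normalized by loess and tested in R 4.3.3 by limma 3.58.1 (moderated linear models). The fit had a dye term and 4 residual degrees of freedom. Probes had to be well above background in 4 of 16 channels, and the brightest was used per gene. Probes were named by RefSeq accession, which named 32994 of 56605. P-values were adjusted by Benjamini-Hochberg over 29362 features, 12510 of them unnamed probes, with a threshold of 0.05. Levels are intensities after loess and Aquantile normalization. Genes named are Psmb5, Psmb6 and Psmb7, those past the threshold, the 3 highest and lowest per comparison, and listed pathway genes. Members and lists were chosen with earlier results of these data known. Replicate numbers were not treated as pairs in the main fit. Same-numbered correlations ran from -0.25 to 0.53, but differently numbered animals were not correlated, so whether the numbers pair the samples was not settled. The number of arrays limits precision. All columns of sample values were mapped to samples. The script was tested on simulated data.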

Additional observations from a re-analysis of the deposited data

Results flagged for a closer look

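Within each group of 4 animals, an animal was singled out when its gap to the nearest other animal exceeded Dixon's critical share of the group's range, which chance does in about 1 in 20 groups. Of 152 groups examined, 11 were singled out, and 6 of these were low values of floxed control 2. They were Psma1 (11.82, nearest 12.41), Psmc1 (14.52, nearest 14.92), Psmc2 (12.48, nearest 12.96), Psmd1 (12.45, nearest 13.02), Psmd4 (13.53, nearest 13.83) and the median deviation of the regulatory particle (-0.42, nearest -0.0029). The members share this animal, so these are not independent. Psmd11 was low in floxed control 4 (9.75, nearest 10.02). Psma8 was low in floxed cryolesioned animal 4 (6.61, nearest 7.04). Psmb1 was high in floxed cryolesioned animal 3 (12.15, nearest 11.89). Psmd5, a base chaperone, was high in Il6-deficient cryolesioned animal 1 (9.92, nearest 9.63). Psmd7, a lid subunit, was high in Il6-deficient control 3 (11.62, nearest 11.46).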

How the results depend on the processing

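Under 19 alternatives, 20 of the 56 gene effects reversed, none of which passed the threshold, and 6 of the 18 class medians changed sign in settings that kept all arrays; the causes were not tested. Member calls for cryolesion in both genotypes were 0 with median centring, with the replicate block and with sex as a covariate, 6 in the separate-channel fit (4 in floxed mice) and 0 to 1 without single arrays. With probes averaged the count was that of the main fit although Psma8 did not pass (limma adjusted p = 0.0675), so another member was called there. Pathway calls were 1 in floxed mice with median centring, processed signals, no filter and the replicate block, and 10 in the separate-channel fit. In deficient mice they were 5 in the separate-channel fit and 0 with the block. In both genotypes they were 2 with median centring, 2 with processed signals, 15 in the separate-channel fit and 1 with the block. The separate-channel fit called 16.7%, 10.7% and 28.7% of all features in floxed mice, deficient mice and both genotypes. The block called 337, 6 and 772 features, against 896, 803 and 3492 in the main fit. Median centring and processed signals called 358 and 403 features in floxed mice and 2354 and 1769 in both genotypes. With no filter, 776 of 46522 features were called in floxed mice. Without single arrays pathway calls were 0 to 8, 0 to 1 and 1 to 10.

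With median centring the core median was 0.37 for cryolesion in floxed mice, -0.25 for genotype after cryolesion and -0.49 for the interaction, the base median 0.20, -0.13 and -0.35, and the lid interaction -0.29. The core interaction was -0.098 in the separate-channel fit, and the base median in floxed mice 0.12 with probes averaged. With the replicate block the base median was -0.32 in deficient mice and -0.32 for the interaction. The block called 772 features against 3492 in both genotypes, and it changed no member call besides Psma8. Whether animals of the same number belong together was not settled. With sex as a covariate the base median was 0.14 in both genotypes, and the lid median 0.12 in deficient mice and 0.20 in both. Without single arrays the base ran from -0.034 to 0.23 for genotype in controls, -0.10 to 0.13 after cryolesion and -0.34 to 0.17 for the interaction, and the lid from -0.072 to 0.12 for cryolesion in deficient mice, -0.013 to 0.24 for genotype in controls and -0.23 to 0.077 for the interaction.

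Cryolesion effects in both genotypes reversed with median centring for Psmc1 (0.045), Psmd3 (0.051), Psmb10 (0.080) and Pomp (0.015), with sex for Psmb5 (0.012), Psmc1 (0.067), Psmd3 (0.24) and Psmb10 (0.097), and with processed signals for Psmb5 (0.071) and Psmb10 (0.050). The authors' deposited table gave Psmb5 0.0037 and Psmb10 0.021, offset 16 gave Psmb10 0.010 and the separate-channel fit 0.047. In floxed mice Psmc3, Psmd3 and Psmc1 stood at 0.14, 0.15 and 0.19 with median centring and 0.0091, 0.21 and 0.081 with sex, Psmd3 at 0.028 with probes averaged and Psmc1 at 0.0092 with processed signals. In deficient mice Psmc1 stood at 0.052 with sex. Median centring gave -0.012, -0.11 and -0.16 for Psmd3, Psmc3 and Psmc1 by genotype after cryolesion, 0.056 for Psmd10 by genotype in controls and -0.093 for Psmc5 by interaction. The separate-channel interactions were -0.092 (Psmd11), -0.12 (Psmc5), -0.045 (Psma8) and 0.038 (Psmc3ip). The block gave Psmc3ip 0.081 by interaction and Psmd10 0.024 by genotype after cryolesion. Without single arrays, cryolesion in both genotypes ran from -0.052 to 0.027 (Psmb5), -0.20 to 0.33 (Psmb7), -0.24 to 0.20 (Psmd3) and -0.11 to 0.083 (Psmb10). In floxed mice it ran from -0.47 to 0.17 (Psmd3) and -0.34 to 0.027 (Psmc1), and in deficient mice from -0.31 to 0.052 (Psmc1). Genotype in controls ran from -0.029 to 0.36 (Psmc3) and -0.18 to 0.18 (Psmd10), and after cryolesion from -0.070 to 0.30 (Psmc3), -0.024 to 0.42 (Psmd3) and -0.10 to 0.24 (Psmc1). All arrays share 1 slide and 1 scan, so no slide block was run.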

Other observations

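Several probes passed for 17 of the 36 genes. Probes of one gene differed in sign for 4 genes in floxed and 5 in deficient mice for cryolesion, 2 in the mean of both genotypes, 1 for genotype in controls, 6 after cryolesion and 2 for the interaction, and no gene had probes called in opposite directions. Among the alpha-ring genes, the dimmer probe of Psma3 passed for cryolesion in both genotypes (0.30, adjusted p = 0.0485 in a limma fit of single probes), while the probe used gave 0.16 (adjusted p = 0.182). The dimmer probe of Psma8 did not pass in that fit (0.11, adjusted p = 0.328), while the probe used gave 0.33 (adjusted p = 0.0331). The probes of Psmd3 gave 0.25 and -0.17 for genotype after cryolesion, and those of the base ATPase Psmc3 gave 0.19, 0.016 and -0.10.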
